A study of Mus musculus with 22 samples.

Results

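In adipocytes of mouse epididymal fat, 312 of 102995 open chromatin regions had a peak in all 3 libraries of young chow-fed mice (C_short), in none of the 3 libraries of mice after a short high-fat diet (H_short) and in none of the 3 after its return to chow (HC_short). They were chosen by these calls alone. The peaks of all 22 libraries on chromosomes 1 to 19 were merged wherever they overlapped by 1 bp or more, and each merged region counted as called wherever a library's own peaks touched it. The members were called in 3 of 3 C_short, 0 of 3 H_short and 0 of 3 HC_short libraries, so their difference between these 9 libraries is a description and was not tested. CC_short and the 10 libraries of the long arm were not used to choose them, and the tests below rest on the long arm.

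The question was whether changes in adipocyte chromatin made by obesity outlast weight loss. ATAC-seq was run on tagged nuclei pulled from frozen epididymal fat of AdipoERCre x NuTRAP mice, labelled as on a C576BL6 background and given in the methods as C57BL/N, and the labels number the libraries of a group as biological replicates. All groups carried the tamoxifen-inducible Cre, which is driven in adipocytes, and the reporter that tags their nuclei, and all received tamoxifen followed by a washout before the diets began. C_short (n = 3) were chow-fed mice 18 weeks old, and H_short (n = 3), equally old, had eaten high-fat diet over the last 12 weeks. HC_short (n = 3) had the same 12 weeks of high-fat diet and then 8 weeks of chow, and CC_short (n = 3) is its chow control at 26 weeks of age. In the long arm, mice were 31 weeks old in CC_long (n = 2), on chow, and in HH_long (n = 3), after 25 weeks on high-fat diet. At 39 weeks, CCC_long mice (n = 2) had stayed on chow and HHC_long mice (n = 3) had returned to chow 8 weeks before, after 25 weeks on high-fat diet. Per the methods, a second chow was used in those final 8 weeks, for controls too, so CC_short and CCC_long differ from the younger controls in chow and in age. Whether the libraries of the arms were prepared as separate batches is not given in the sources used here. An effect of such batches could not be told apart from that of the arm.

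ATAC-seq marks open chromatin by where the transposase Tn5 can insert into DNA. Open regions at promoters are mostly shared between cell states, while open regions far from genes, many of them enhancers, differ more between cell types and between states of a cell. In adipocytes, enhancers bound by factors such as PPARgamma, C/EBP proteins and EBF2 govern lipid storage, lipolysis and hormone responses.

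The members lay mostly outside promoters, and the windows of 300 bases around their C_short summits show what such sequence looks like. The sequences of 5 of them are given, read from the RefSeq GRCm38 genome on the plus strand. The first 4 are those with a searched motif among the 10 members of smallest p in the long arm, and the last lies in a gene of the lipid synthesis list. Capitals mark a match to a searched motif on either strand.

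Intergenic, 86713 bp from the start site of Irx2, chr13:72716252-72716551, with an ETS match: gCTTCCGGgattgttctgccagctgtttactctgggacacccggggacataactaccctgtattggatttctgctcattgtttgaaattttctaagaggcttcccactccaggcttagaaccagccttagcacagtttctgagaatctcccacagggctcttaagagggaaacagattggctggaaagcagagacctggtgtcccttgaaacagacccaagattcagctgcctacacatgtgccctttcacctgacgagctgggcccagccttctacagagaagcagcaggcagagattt
Intron of Mlxipl, chr5:135089621-135089920, with an E-box match: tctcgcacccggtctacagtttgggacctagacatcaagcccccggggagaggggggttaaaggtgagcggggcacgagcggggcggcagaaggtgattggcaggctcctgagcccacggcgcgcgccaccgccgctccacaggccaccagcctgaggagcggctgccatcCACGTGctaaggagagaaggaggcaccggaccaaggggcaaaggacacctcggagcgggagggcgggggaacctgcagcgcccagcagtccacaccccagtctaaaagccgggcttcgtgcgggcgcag
Intergenic, 43882 bp from the start site of Pdk1, chr2:71919394-71919693, with an AP-1 match: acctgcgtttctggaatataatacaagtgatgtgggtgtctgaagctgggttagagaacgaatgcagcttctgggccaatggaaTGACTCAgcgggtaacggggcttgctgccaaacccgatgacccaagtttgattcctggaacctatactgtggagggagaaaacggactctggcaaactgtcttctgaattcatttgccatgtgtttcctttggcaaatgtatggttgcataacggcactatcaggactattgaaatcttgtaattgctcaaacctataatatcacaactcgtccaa
Intergenic, 133059 bp from the start site of Dcbld2, chr16:58273411-58273710, with a match to the steroid receptor palindrome core: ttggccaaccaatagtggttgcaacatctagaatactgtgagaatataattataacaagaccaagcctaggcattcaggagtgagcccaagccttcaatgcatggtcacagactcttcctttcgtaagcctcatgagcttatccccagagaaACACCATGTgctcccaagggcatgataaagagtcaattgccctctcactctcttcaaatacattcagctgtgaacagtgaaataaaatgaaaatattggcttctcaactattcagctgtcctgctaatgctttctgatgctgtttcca
Gene body of Acaca, chr11:84146787-84147086, with an AP-1 and an E-box match: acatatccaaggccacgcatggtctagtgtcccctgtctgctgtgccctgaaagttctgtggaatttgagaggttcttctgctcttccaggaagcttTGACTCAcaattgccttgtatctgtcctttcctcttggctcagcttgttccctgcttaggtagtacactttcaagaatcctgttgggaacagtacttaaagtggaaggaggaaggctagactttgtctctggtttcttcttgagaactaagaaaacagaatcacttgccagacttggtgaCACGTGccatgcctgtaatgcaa

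The E-box CACGTG was present in the windows of 22 members (7.05%) and in 6.69% of the 24268 windows of the same length at regions called in 3 of 3 C_short. The AP-1 motif TGANTCA was in 32 member windows (10.3%) against 9.42%, and the steroid receptor palindrome core ACANNNTGT in 38 (12.2%) against 9.15%. The single nuclear receptor site AGGTCA was in 53 (17.0%) against 18.0%, the EBF motif TCCCNNGGGA in 4 (1.28%) against 1.72% and the CTCF core in 13 (4.17%) against 3.15%. The ETS motif CCGGAAG was in 3 member windows (0.962%) against 7.96%, and outside promoters in 1.03% against 1.91%. The PPAR:RXR direct repeat AGGTCANAGGTCA, the C/EBP palindrome TTGCGCAA and the NFI site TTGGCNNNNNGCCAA were found in 0 member windows, against 0.0577%, 0.354% and 0.0783%. Every motif was searched on both strands, and each match of the direct repeat also holds the single site. The median GC content was 47.3% in member windows and 51.7% in all windows, and 47.0% and 48.0% outside promoters. The Mlxipl window stands apart from the median with 68.3% GC. Because members lay mostly outside promoters, the shares were also taken there, over 291 members and 14592 regions. AP-1 was then in 10.7% of members against 12.0%, AGGTCA in 17.5% against 21.0% and the CTCF core in 3.78% against 4.04%, and so was lower in members for all 3. The palindrome core was in 12.7% against 11.9%, the E-box in 6.19% against 4.67% and the EBF motif in 0.687% against 1.93%. These shares were not tested.

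Members were distal and narrow beside all regions called in 3 of 3 C_short. Of the 312, 21 (6.73%) overlapped a promoter, 2000 bp on each side of a start site, against 39.9% of the regions called in 3 of 3 C_short. A further 59 (18.9%) covered an exon in a gene body, 82 (26.3%) lay in an intron and 150 (48.1%) were intergenic, against 16.2%, 14.5% and 29.5%. The nearest start site of a protein-coding gene was a median of 47438 bp away, compared with 13013 bp, and 93 members (29.8%) were more than 100000 bp from any, compared with 16.3%. The median width was 4364 bp against 8478.5 bp. This width is merged over all 22 libraries, and by the rule H_short and HC_short add nothing to that of a member. The bases covered by C_short peaks, averaged over the 3 libraries, had a median of 2446 bp against 4078 bp.

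Other regions lost in H_short were divided by their calls in HC_short. The 679 called in 1 or 2 HC_short libraries had a promoter share of 15.3%, and the 105 called in all 3 had a share of 31.4%. Among these 3 sets the promoter share was thus lowest in the members and highest in the regions with a peak in every HC_short library. The median width was 4727 bp in the 679 and 5463 bp in the 105, and the median distance to a start site 39278 and 27573 bp. Width was therefore not particular to the members, at 4364 bp. The strength of the peaks in C_short also differed between these sets. Total signal, the coverage summed over a peak, was divided by the lowest value listed in the same library, and the median ratio in C_short was 1.41 in the members, 1.496 and 1.76 in the other sets and 4.24 in all regions called in 3 of 3 C_short. Members were thus weak peaks in lean adipocytes, near the threshold of the peak caller. At the edge of the rule, 891 regions called in 2 rather than 3 C_short libraries had a median ratio of 1.28, and 492 regions called in 3 of 3 C_short but also in 1 of the 6 H_short and HC_short libraries had 1.44. The rule depends on single libraries: with 1 library left out, the number of members was 341 to 789, at its highest without C_short 1, and 605 without C_short 3 and 510 without HC_short 2. Among the 263 members with a ratio under 2, a limit chosen after seeing the data, 7.60% overlapped a promoter, against 14.7% of the 4790 other regions called in 3 of 3 C_short with such a ratio.

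**Figure D1:**
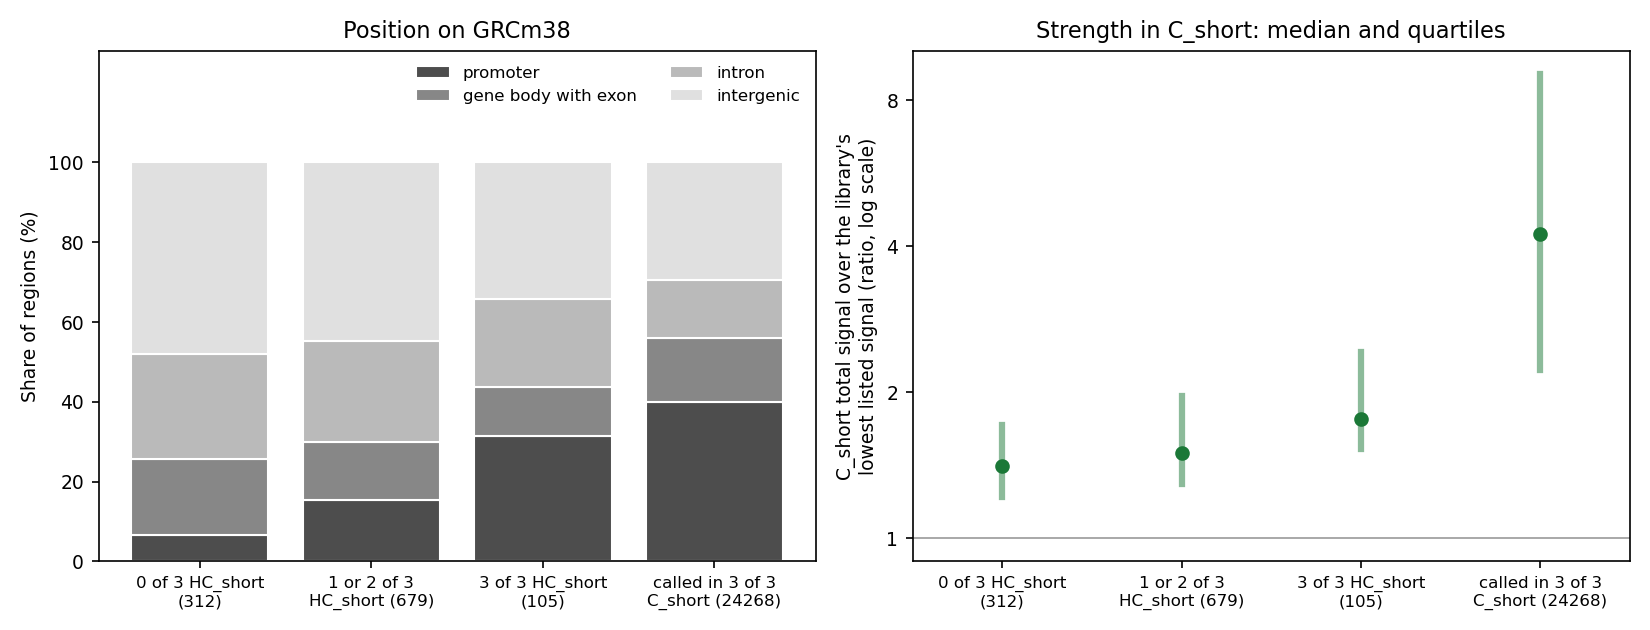
Left, share of regions (%) by position on GRCm38, for regions lost in H_short split by the number of HC_short libraries that called them and for all regions called in 3 of 3 C_short. Right, total signal in C_short over the lowest listed signal of the library (ratio, log scale, line at 1), as median (point) and quartiles (bar). The 312 members had the lowest promoter share, 6.73%, and the lowest median ratio, 1.41.

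The 21 members at promoters belonged to genes of varied function, and only the calls of a few are given. The promoter region of Serpina6, which encodes corticosteroid-binding globulin, was called in 4 of 4 chow and 2 of 6 high-fat history libraries of the long arm. That of Slc37a1, a sugar-phosphate transporter, was called in 4 and 4. At the promoter of Adra1b, the alpha-1B adrenergic receptor, there were 2 chow and 2 high-fat history calls, and at that of Acot7, an acyl-CoA thioesterase, 2 and 1. These regions were named after their values had been seen. Of the 21, 10 had a peak in 0 of 3 HH_long libraries, 6 in 0 of 3 HHC_long libraries and 5 in 0 of 6 libraries of both groups, namely those of Lypd6b, Pabpc4l, Kcnc4, Tbc1d30 and Dlgap1. Over all 312 members these shares were 63.8%, 46.2% and 35.9%, and over the regions called in 3 of 3 C_short 3.22%, 4.14% and 1.32%. On chow in the long arm, the Lypd6b region was called in 2 of 4 libraries and those of Pabpc4l, Kcnc4 and Tbc1d30 in 1 of 4. These 4 were thus seldom called on chow as well.

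Some genes of the pathway lists held a member. Across all 20780 protein-coding genes, 161 (0.775%) had a member at the promoter or in the gene body. In the lipid synthesis and storage list 2 of 24 genes did, Mlxipl, which encodes the carbohydrate-responsive transcription factor ChREBP, and Acaca, which encodes acetyl-CoA carboxylase, the enzyme that makes malonyl-CoA for fatty acid synthesis. In the circadian clock list 1 of 18 did, Rora, a nuclear receptor that activates clock genes, with 2 regions in the introns. The lists for lipolysis and fatty acid handling (24 genes), insulin and hormone signalling (24), adipocyte transcription factors and adipokines (23), mitochondria and branched-chain amino acids (23), extracellular matrix and TGF-beta (22) and inflammation (24) each had 0. At a share of 0.775%, lists of this size would seldom hold a member, so 0 is no result about them. No promoter of a list gene overlapped a member.

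The question for the long arm was whether regions chosen in the short arm also lacked peaks after a longer high-fat diet. In chow libraries the members were called in 170 and 225 cases in CC_long and in 213 and 166 in CCC_long. HH_long libraries called 47, 64 and 32 of them, and HHC_long libraries 102, 89 and 46. All 4 chow libraries thus called more members than any of the 6 high-fat history libraries. The group means were 197.5 ± 38.9 (SD, n = 2) in CC_long, 189.5 ± 33.2 (n = 2) in CCC_long, 47.7 ± 16.01 (n = 3) in HH_long and 79.0 ± 29.3 (n = 3) in HHC_long. CC_short, the older control of the short arm, called 159, 226 and 238, which overlaps the range of the long-arm controls. A smaller share of nuclei with the region open and a lesser opening in each nucleus cannot be told apart in these bulk libraries.

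The share of other regions called also differed between the libraries. Of the 24268 regions called in 3 of 3 C_short, chow libraries of the long arm called 91.4% to 97.7% and high-fat history libraries 66.3% to 92.3%, with the lowest share in HHC_long 3. The enrichment ratio, the median over the lowest maximum signal of a list, was 3.67 to 8.20 in the chow and 2.25 to 6.33 in the high-fat history libraries. Regions of the reverse pattern, 167 called in 3 of 3 H_short, 0 of 3 C_short and 3 of 3 HC_short, had calls for 24.6% to 40.1% of them in chow and for 49.1% to 97.6% in high-fat history libraries. All 12 adipocyte marker promoters had a peak in each of the 22 libraries. Of 12 markers each, the long-arm chow and high-fat history libraries had peaks at 3 to 5 and 3 to 7 macrophage, 2 to 8 and 2 to 12 endothelial, 6 to 10 and 6 to 10 progenitor, 2 to 6 and 0 to 8 mesothelial, and 2 to 2 and 1 to 3 lymphocyte promoters. The count of 12 endothelial promoters was that of HH_long 1, whereas HH_long 2 and HH_long 3 had 4 and 2. Mesothelial promoters differed between the diets without overlap in the younger pairs, with 6, 3 and 3 in C_short and 0, 1 and 1 in H_short, and with 5 and 4 in CC_long and 1, 2 and 0 in HH_long. After the return to chow they overlapped, with 4, 4 and 5 in HC_short and 2, 5 and 4 in CC_short, and with 4, 4 and 8 in HHC_long and 2 and 6 in CCC_long. In the chow and high-fat history libraries of the short arm, the other lists had 3 to 5 and 3 to 8 macrophage, 2 to 4 and 2 to 6 endothelial, 6 to 8 and 6 to 8 progenitor, and 1 to 3 and 1 to 2 lymphocyte promoters. The part of enrichment and of other cell types in the members' calls was not tested. In the short arm, HC_short 3 had an enrichment ratio of 2.43 and called 69.8% of the regions found in 3 of 3 C_short, and without it the rule gave 377 members.

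**Figure D2:**
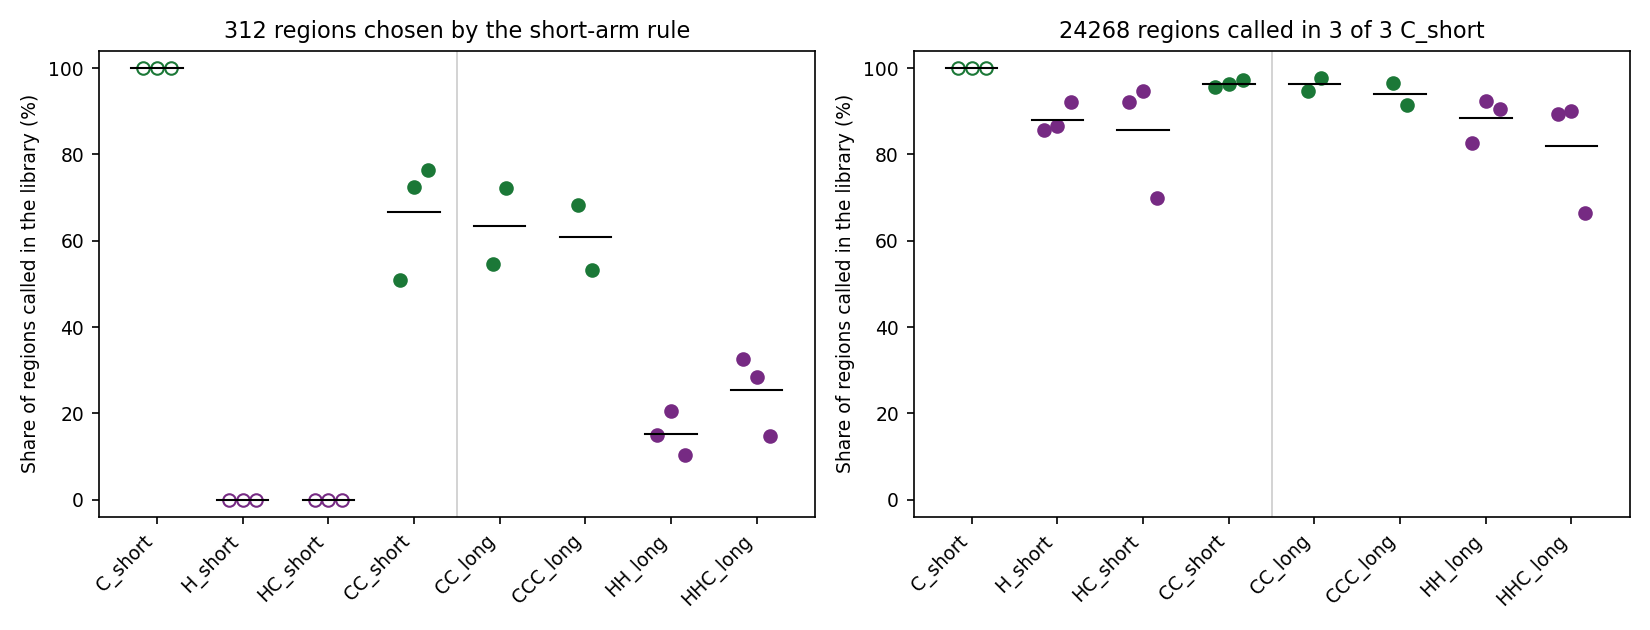
Share of regions called in each library (%, 1 point per library, bar at the group mean), for the 312 members (left) and for all 24268 regions called in 3 of 3 C_short (right), with chow groups in green and high-fat history groups in purple. Open points are libraries whose calls defined the set. In the long arm the chow libraries called 53.2% to 72.1% of the members and the high-fat history libraries 10.3% to 32.7%, with no overlap.

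Member by member, 269 of 312 (86.2%) were called by a larger share of the chow than of the high-fat history libraries of the long arm, 24 by an equal share and 19 (6.09%) by a smaller one. Among all regions called in 3 of 3 C_short, 37.5% had the larger share in chow and 5.06% in high-fat history. Of these 24268 regions, 13930 had an equal share, 13759 of them because all 10 libraries called them. Equal shares were rarer in the members, so the percentages are not directly comparable. Among the regions called in 3 of 3 C_short with unequal shares, 9111 had the larger share in chow and 1227 in high-fat history. The other regions lost in H_short were like the members in this, with the larger share in chow for 87.2% of the 679 and 83.8% of the 105. In the 6 high-fat history libraries 112 members (35.9%) had no peak at all, against 11.3% of the 679, 1.90% of the 105 and 1.32% of the regions called in 3 of 3 C_short. In 4 of 4 chow libraries 81 members (26.0%) were called, against 42.9%, 70.5% and 86.5%. Members thus had the lowest shares of calls of these sets in both diets. A single member was called in all 10 long-arm libraries and 17 (5.45%) in none of them, against 56.7% and 0.128% of the regions called in 3 of 3 C_short.

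**Figure D3:**
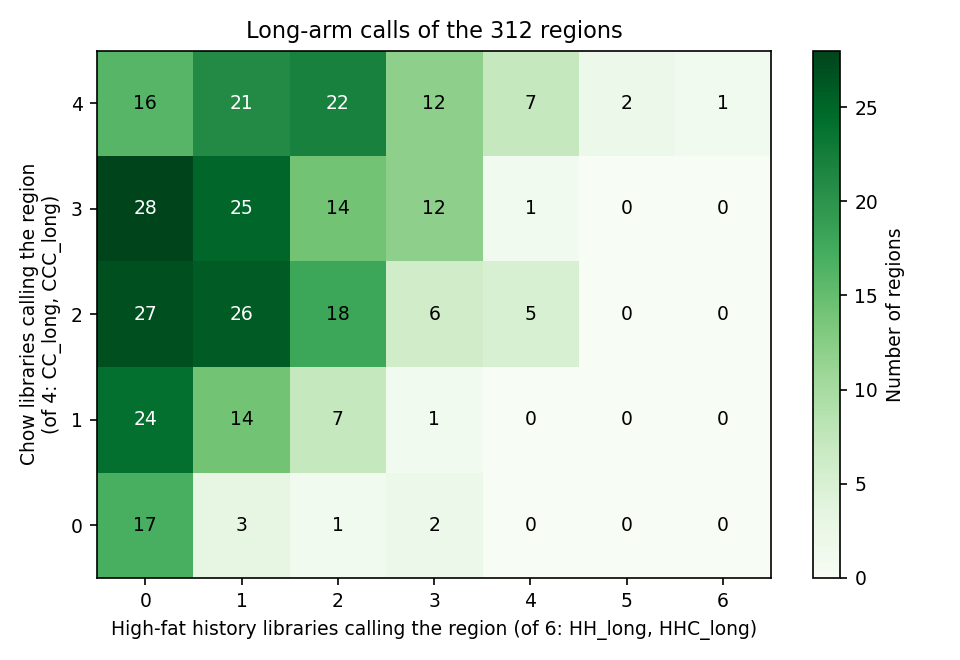
Number of members (colour and printed count) by how many of the 4 chow libraries and of the 6 high-fat history libraries of the long arm called them. Of the 312 members, 269 were called by a larger share of chow libraries, and 16 were called in 4 of 4 chow and 0 of 6 high-fat history libraries.

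After 25 weeks of high-fat diet, 84 members (26.9%) were called in 2 of 2 CC_long and 0 of 3 HH_long libraries, and 0 showed the reverse. The same pattern held for 454 of the 24268 regions called in 3 of 3 C_short (1.87%). After weight loss, 46 members (14.7%) were called in 2 of 2 CCC_long and 0 of 3 HHC_long libraries and 1 the other way round, against 1.97% of the regions called in 3 of 3 C_short. In 4 of 4 chow and 0 of 6 high-fat history libraries there were 16 members (5.13%), against 0.272%. All of these shares were above those of the regions open in lean mice, which include the members. With 1 library left out the counts were 90 to 137, 51 to 87 and 17 to 27, since fewer libraries had to share the pattern, with 137 without CC_long 1, 87 and 27 without CCC_long 2, and 73 without HHC_long 1. Without HHC_long 3, the library of lowest enrichment, the last 2 counts were 51 and 17. Where a call needed 50% of the region covered, 34, 27 and 1 of 402 members had these patterns, and with the strongest 39894 peaks of each library 60, 34 and 6 of 401 did. The share over regions called in 3 of 3 C_short was not taken in these settings. Whether the members' shares stayed above it there, with 1 of 402 for the last pattern, is therefore not known. Because the members are weak peaks, the shares were also taken, after seeing the data, for regions with a C_short ratio under 2. There the pattern of CC_long and HH_long held for 62 of 263 members (23.6%) and 261 of 4790 other regions (5.45%). That of CCC_long and HHC_long held for 35 (13.3%) and 269 (5.62%), and the pattern over all 10 libraries for 8 (3.04%) and 32 (0.668%).

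Compared with the other regions lost in H_short, the members had lower shares of calls in the long arm after high-fat diet and on chow alike. HH_long libraries called 10.3% to 20.5% of the members, 24.4% to 42.9% of the 679 regions called in 1 or 2 HC_short libraries and 33.3% to 64.8% of the 105 called in all 3. HHC_long libraries called 14.7% to 32.7%, 25.8% to 51.8% and 48.6% to 83.8%, and the chow libraries 53.2% to 72.1%, 69.1% to 87.2% and 82.9% to 96.2%. Among the 679, the pattern of 2 of 2 CC_long and 0 of 3 HH_long held for 132 (19.4%), that of 2 of 2 CCC_long and 0 of 3 HHC_long for 62 (9.13%) and that over all 10 libraries for 15 (2.21%). Among the 105 they held for 11 (10.5%), 5 (4.76%) and 0. These differences were not tested.

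The numbers of members called in HH_long and HHC_long libraries overlapped, and the counts below were not tested. More HHC_long than HH_long libraries called 110 members, equal numbers called 158, and fewer HHC_long libraries called 44 (35.3%, 50.6% and 14.1%). Among the regions called in 3 of 3 C_short these shares were 7.70%, 67.9% and 24.4%, and among the 679 and the 105 more HHC_long libraries called 38.6% and 46.7%. Of the regions called in 3 of 3 C_short, 77.2% had a peak in 3 of 3 HH_long, and more HHC_long libraries could not call them. The 63.8% of members with no peak in HH_long could not be called by fewer. These shares were thus partly set by the HH_long calls, and the sets are not directly comparable. In the chow groups of the same ages, 77 members were called by more CCC_long than CC_long libraries, 150 by equal numbers and 85 by fewer (24.7%, 48.1% and 27.2%), against 3.66%, 88.6% and 7.77% of the regions called in 3 of 3 C_short. Of those regions, 93.5% were called in 2 of 2 CC_long, where no rise was possible. Of the members, 199 (63.8%) had no peak in HH_long and 144 (46.2%) had none in HHC_long, against 3.22% and 4.14%. The difference of HH_long from CC_long was set against that of HHC_long from CCC_long in limma for every region. This test was added after seeing the data, and 0 of 39716 regions and 0 of 246 members tested passed an adjusted p of 0.05. At an unadjusted p under 0.05 there were 1905 regions and 38 members. A member with all high-fat history libraries at the floor entered through chow libraries alone. For such a member the test compares CCC_long with CC_long, controls that differ in age and chow. The 38 are therefore a description and do not show a change with weight loss.

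For signal, regions were ranked by total signal within a library, and the 29500 highest were given, rank by rank, the log2 total signal averaged across the 22 libraries. Regions ranked lower, and those with no peak, were set to 14.01, the level of the lowest rank, called the floor. Members had a median of 14.35 in C_short on this scale, so a difference of 1 was beyond reach for most of them, and any difference from libraries at the floor depends on the floor. Of the 312 members, 246 were above the floor in at least 2 long-arm libraries and were tested, and 66 were not.

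Over all 10 long-arm libraries, high-fat history against chow, limma called 0 members lower at an adjusted p under 0.05 and a log2 difference below -1. Over all 39716 regions tested it called 2 (0.00504%). At an unadjusted p under 0.01 and any size, a count added after seeing the data, 45 of the 312 members were lower and 0 were higher with high-fat history. The background was 1370 lower regions (3.45% of those tested, 1.33% of all regions) and 519 higher ones. At an unadjusted p under 0.05, 77 members were lower and 0 higher, where 3341 regions were lower and 1529 higher. The count of 45 was 12 with library median scaling, with which 82 members could be tested and 2020 of 29720 regions were lower, and 25 with the replicate number as a block, with which 683 of 39716 regions were. The adjusted count of 0 was 2 without CCC_long 1 and 1 without HHC_long 3. The smallest adjusted p of a member was 0.0537, so no member passed the correction at any size in this fit. At any size, 30 members had an adjusted p under 0.05 with library weights, 12 without CCC_long 1, 4 with library median scaling, 2 with the filter at 3 or more libraries and 1 without HHC_long 3, and 0 in the other alternatives. Members that passed the filter mostly did so through chow libraries, where the choice of members made them likely to be high, and these counts are given as a description.

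The 10 members of smallest p had the same pattern, chow libraries above high-fat history libraries, though not every chow library in each. All 10 met the filter through chow libraries alone, with at most 1 high-fat history library above the floor, and they were ranked by this contrast, so their p-values are a description and add no support. The first is the intergenic region near Irx2, a homeobox transcription factor gene, and spans 72715533 to 72718596 of chromosome 13. Its log2 total signal was 15.29 and 15.56 in CC_long and 14.68 and 14.69 in CCC_long. It was 14.09 in HHC_long 1, and the other 5 high-fat history libraries had no peak and sat at the floor. Every chow library was thus above every high-fat history library (adjusted p = 0.0537, limma). In the libraries of the rule it had 15.74, 15.31 and 14.01 in C_short, and CC_short, which the rule did not use, had 16.01, 15.29 and 14.90.

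The next lies in an intron of Katnal1, which encodes a katanin-like microtubule-severing protein, on chromosome 5 from 148881386 to 148886631. Signal was 15.66 and 15.09 in CC_long, 14.92 and 15.04 in CCC_long, 14.07 in HHC_long 1 and at the floor in the other high-fat history libraries, which had no peak. Chow and high-fat history libraries did not overlap (adjusted p = 0.0560, limma).

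The intronic region of Mlxipl on chromosome 5 from 135087856 to 135095249, whose window is printed above, differed between the controls as well. It was called in CCC_long, with 15.04 and 15.16, and in none of the CC_long, HH_long or HHC_long libraries. In CC_short it had no peak in library 1 and 14.98 and 15.45 in libraries 2 and 3. In the short arm it had 14.91, 14.34 and 14.82 in C_short. The adjusted p for high-fat history against chow was 0.0570 (limma), and that for CCC_long against CC_long was 0.466 (limma). The long-arm contrast here rests on the older controls alone. The Mlxipl region was therefore without a peak in CC_long mice that never received high-fat diet.

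Near Pdk1, which encodes a pyruvate dehydrogenase kinase, the region on chromosome 2 from 71917106 to 71922105 had 14.15 and 14.35 in CC_long, 15.18 and 14.92 in CCC_long, 14.02 in HHC_long 1 and no peak in the other high-fat history libraries. The groups did not overlap (adjusted p = 0.0636, limma). The region 133059 bp from Dcbld2, on chromosome 16 from 58271571 to 58275384, had 14.12 and 14.62 in CC_long and 15.40 and 14.98 in CCC_long, with a peak in 0 of 6 high-fat history libraries (adjusted p = 0.0817, limma). The region 77877 bp from Rab10, a gene for a small GTPase that brings the glucose transporter GLUT4 to the surface of fat cells, lies on chromosome 12 from 3226545 to 3232092. It had 15.15 and 14.74 in CC_long, 14.20 and 14.51 in CCC_long and a peak in 0 of 6 high-fat history libraries (adjusted p = 0.0804, limma). No difference is given for these regions, since it would depend on the floor.

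The other 4 of these regions lie in introns of Nav3, Ptprm and Kif13a, and 176869 bp from Pdzrn4, with adjusted p from 0.0812 to 0.0870 (limma). Nav3 was the mirror of Mlxipl in the controls, with 14.79 and 15.11 in CC_long and no peak in CCC_long, HH_long or HHC_long. Ptprm, a receptor tyrosine phosphatase gene, had 14.38 and 14.53 in CC_long, 14.48 and 14.74 in CCC_long and 14.11 in HHC_long 2 alone of the high-fat history libraries. Kif13a, a kinesin gene, had 14.07 in CC_long 2, 14.93 and 14.67 in CCC_long and no peak in the others. Pdzrn4 had 14.99 and 15.01 in CC_long, 15.07 and 14.33 in CCC_long, and 14.09 in HHC_long 2 as the highest of the high-fat history libraries.

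**Figure D4:**
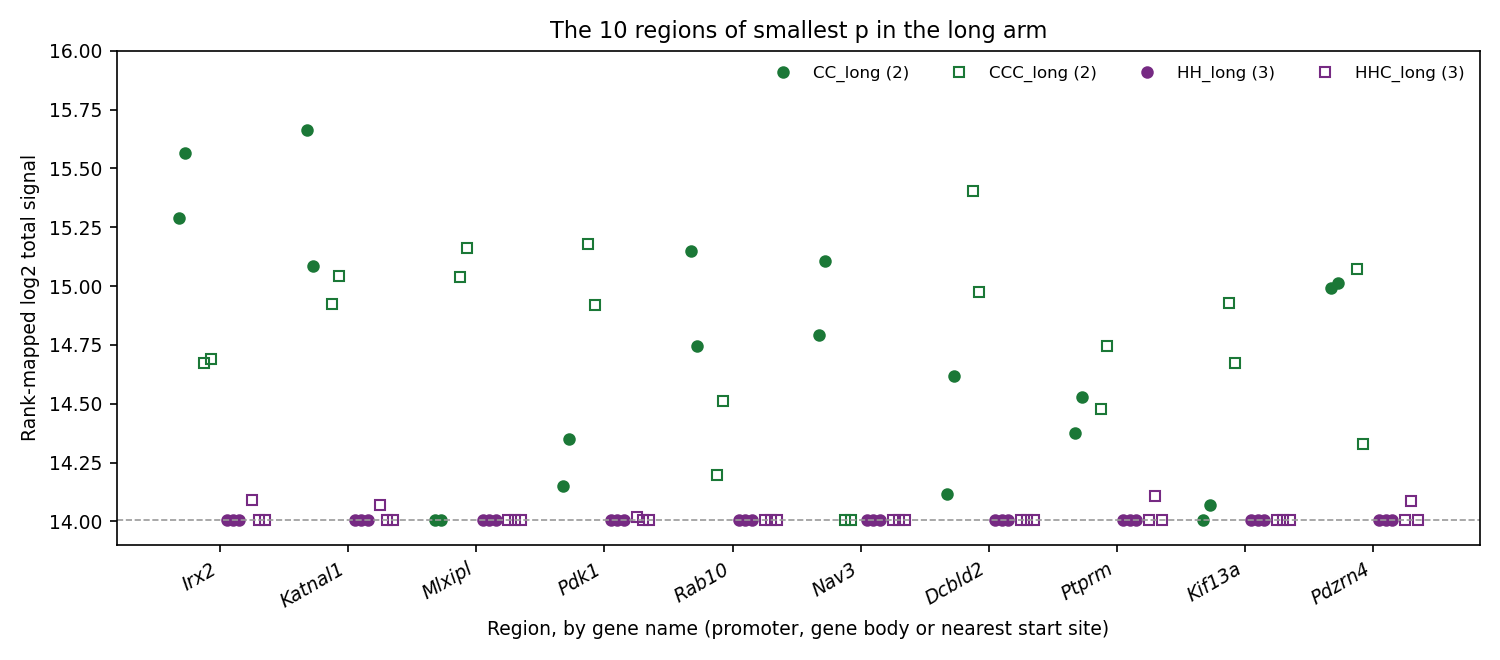
Rank-mapped log2 total signal in each long-arm library (1 point per library) for the 10 members of smallest p, high-fat history against chow, with chow in green and high-fat history in purple, and the floor of 14.01 as a dashed line. High-fat history libraries lie at or just above the floor, the highest at 14.11, and Mlxipl and Nav3 are above the floor in only 1 of the 2 chow groups.

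Of the 5 strongest members in C_short, 4 are described, and they did not behave alike in the long arm. The strongest covers exons of Tbc1d14, which encodes a regulator of autophagosome formation, on chromosome 5 from 36537358 to 36555638, and is the second widest member with 18281 bp. Signal was 15.56 and 15.95 in CC_long, 16.07 and 16.59 in CCC_long and at the floor in all 3 HH_long libraries, of which HH_long 2 had a peak. It was 16.29, 15.82 and 15.24 in HHC_long. The region was thus at the floor in obese mice of the long arm. In HHC_long, 2 of 3 libraries lay within the range of the chow libraries and HHC_long 3 lay below it, whereas HC_short had no peak by the rule. It was the only member higher in HHC_long than in HH_long at an unadjusted p under 0.01 and a log2 difference above 1 (adjusted p = 0.803, limma), where 37 of 34422 regions passed (0.107%). It entered that fit through HHC_long alone, and no difference is given because HH_long was at the floor. This call was lost without any of the 3 HH_long libraries, and 2 members passed without HHC_long 2 or HHC_long 3. Its difference of HHC_long from CCC_long was -0.54, and did not pass that threshold.

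In an intron of Grik5, a glutamate receptor gene, chow libraries ranged from 14.09 to 15.98 and high-fat history libraries from the floor to 14.86, and the groups overlapped (adjusted p = 0.437, limma). The regions 62498 bp from Smim20 and 22495 bp from Spry2, an inhibitor of growth factor signalling, had long-arm means of 14.15 and 14.19 in chow and of 14.11 and 14.01 with high-fat history (adjusted p = 0.907 and 0.542, limma). Among these 4, the long-arm difference ranged from near 0 at Smim20 to that at Tbc1d14.

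The other 2 of the 3 widest members lie on chromosome 18, in an intron of Wac (19906 bp) and over exons of Gm4951 (16631 bp). Wac was called in 2 chow and 2 high-fat history libraries and Gm4951 in 4 and 5, with adjusted p of 0.575 and 0.943 (limma). Gm4951 reached 17.63 in HHC_long 1, above every chow library.

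The 3 members with the largest difference in the other direction were chosen by it, and their values are a description. The region over exons of Ly86, a gene of innate immune receptor signalling, was at the floor with no peak in 4 of 4 chow libraries and had 14.27 in HH_long 1 and 15.97 in HHC_long 2. That of Sec24b, a coat protein gene of the secretory pathway, had no peak in the chow libraries, 14.29 in HHC_long 1, 15.88 in HHC_long 2 and 14.01 in HHC_long 3. The region 70148 bp from Gclc, the catalytic subunit of glutathione synthesis, had 14.42 and 14.02 in CC_long, 14.01 in CCC_long 2, 15.80 and 14.48 in HH_long 1 and 2, and 14.53 in HHC_long 1. The regions of Ly86 and Sec24b entered the fit through high-fat history libraries alone, and the highest value of each of the 3 came from 1 library.

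Among the 16 members called in 4 of 4 chow and 0 of 6 high-fat history libraries, 2 are described above, near Rab10 and Dcbld2. The others, named after their values had been seen, include a region 51494 bp from Vegfa, the main angiogenic growth factor gene, with 14.01 and 14.49 in CC_long and 14.86 and 14.89 in CCC_long. A region 27941 bp from Thy1, which encodes a surface glycoprotein, had 14.19 and 14.43 in CC_long and 14.48 and 14.46 in CCC_long. A region 55695 bp from Tbx5, a T-box transcription factor gene, had 14.55 and 14.91 in CC_long and 14.12 and 14.01 in CCC_long. They were chosen for the pattern of their calls, and no test is given. The remaining regions lie in or nearest to Bcl9, Fam114a1, 2410131K14Rik, Cux1, Cdh13, Tent5a, Il12b, Mrm1, Adcy2, Ktn1 and Ccdc192.

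The Acaca region could not be tested, and neither Rora region passed the test, and their values are given by a choice made after seeing them. Acaca, on chromosome 11 from 84144096 to 84148963, had 14.38 in CCC_long 1 and no peak in the other 9 long-arm libraries, and was not tested. In Rora, the region on chromosome 9 from 69108737 to 69113127 was called in 4 of 4 chow and 4 of 6 high-fat history libraries, with 14.11 to 14.99 and from the floor to 14.52 (adjusted p = 0.492, limma). The region from 69132649 to 69137286 was called in 2 of 4 and 0 of 6, with 14.10 as its highest value (adjusted p = 0.678, limma).

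In the pairs of the same age, 9 members were lower in HH_long than in CC_long at an unadjusted p under 0.01 and a log2 difference below -1, and 0 were higher. Over all 32964 regions tested, 447 were lower (1.36%) and 443 higher. Of the 312 members, 135 could be tested, and a member with HH_long at the floor entered this fit through CC_long alone, where it had to be the higher, so the count is a description. The count of 9 was 1 without CC_long 1, 3 without CC_long 2, 41 with maximum signal and 0 with the filter at 3 or more libraries, when 31 members could be tested. The 9 include the regions of Tbc1d14, Irx2 and Katnal1, a region in Has2, the gene of a hyaluronan synthase, and one in Dmgdh, the gene of a mitochondrial enzyme of choline breakdown. The regions of this paragraph that were not described above were named after seeing their values. The others lie near Zfp516, Far2 and Ugt2a1 and at the promoter of Cadps2. Of these, the regions of Cadps2 and Zfp516 were also lower in CCC_long than in CC_long. For HHC_long against CCC_long, 3 members were lower and 0 higher, the lower being the regions of Mlxipl, Pdk1 and Dcbld2. Over all 32119 regions tested, 187 were lower (0.582%) and 38 higher. The count of 3 was 0 without HHC_long 1 or HHC_long 2 and 16 with maximum signal. Here 165 members could be tested, and these 3 entered through CCC_long, with HHC_long at the floor but for Pdk1 in HHC_long 1, so their direction and size were set by the filter and the floor. Between the controls, 2 members were lower in CCC_long than in CC_long and 2 were higher, the regions of Mlxipl and Serpina11, where 122 of 30536 regions were lower (0.4%) and 180 higher. Of the members, 205 could be tested, and Mlxipl entered through CCC_long alone, where it had to be the higher. The adjusted p was above 0.05 for every region in all 4 of these pairs (limma), with 4527, 1990, 1564 and 3126 regions at an unadjusted p under 0.05 for HH_long against CC_long, HHC_long against CCC_long, HHC_long against HH_long and CCC_long against CC_long, of which 43, 43, 1 and 26 were members. HH_long and HHC_long were compared with separate controls, and neither count says that the size of the difference changed with weight loss.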

How the data were processed

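The deposited files are peak lists, 1 per library, and no reads were used. The authors trimmed reads with Trim Galore 0.6.6, aligned them with Bowtie2 2.4.4 to GRCm38 (mm10) and called peaks on the coverage of each library with SEACR 1.3 in stringent mode. The methods state a blacklist filter, and whether it came before these lists is not given in the sources used here. Both deposited values of a peak, the total and the maximum signal, are coverage with no stated normalization, so the depth is not known from the files. Every library had its own list, the number of unmatched columns was 0, and no library was left out. Peaks on chromosomes X and Y, the mitochondrion and scaffolds, at most 2.21% of a list, were set aside.

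Positions refer to the GENCODE vM21 annotation and sequences to the RefSeq GRCm38 genome. A member takes the name of the protein-coding gene whose promoter it overlaps, otherwise of the gene it lies in, otherwise of the nearest start site. Signal was rank-mapped over 29500 regions and fitted with limma 3.58.1 (R 4.3.3, lmFit and eBayes with a trend). A region entered a fit when above the floor in 2 or more of its libraries, and p-values were adjusted by Benjamini-Hochberg over all regions tested. The contrast of high-fat history with chow used 4 group means over 10 libraries, and pairs used their own libraries. Calls needed an adjusted p under 0.05, or an unadjusted p under 0.01, with a log2 difference beyond 1. Named members are the 10 of smallest p in that contrast, the 5 strongest in C_short (1 of them is not reported here), the 3 widest, members at promoters of pathway list genes (there were 0) and the 3 of largest positive difference, and any others are said to be chosen after seeing their values. The fit was tested on simulated data, from which no value is reported. Python 3.11.15 with numpy 2.4.6 and pandas 2.3.3 was used otherwise. The members, gene lists and tests were chosen with earlier results of these data known. The replicate numbers did not pair the libraries: of 13 same-numbered pairs, the deviations from the group means correlated above 0.1 in 2, and ranged from -0.35 to 0.27. Alternatives are given in the closing section.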

Additional observations from a re-analysis of the deposited data

How the results depend on the processing

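The number of members was 401 with the strongest 39894 peaks of each library only, 402 with calls limited to peaks that covered 50% of a region and 325 when regions were merged over the 12 short-arm libraries. It was 341 to 789 without 1 library, with 789 without C_short 1, 605 without C_short 3 and 510 without HC_short 2, and a smaller group lets more regions qualify. The promoter count was 20 in place of 21 with promoters of 1000 bp on each side.

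With 50% cover, 34 of 402 members had 2 of 2 CC_long and 0 of 3 HH_long calls, 27 had 2 of 2 CCC_long and 0 of 3 HHC_long calls, and 1 had the pattern over all 10 libraries. With the strongest peaks only, that pattern held for 6. No background share was taken in these settings. Without 1 library these counts were 90 to 137 (137 without CC_long 1), 51 to 87 (87 without CCC_long 2, 73 without HHC_long 1) and 17 to 27 (27 without CCC_long 2).

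With limma over the 10 long-arm libraries, the adjusted count of lower members, 0, was 2 with the filter at 3 or more libraries and 3 with library weights, and it was 0 to 2 without 1 library, with 2 without CCC_long 1 and 1 without HHC_long 3. The 45 members at an unadjusted p under 0.01, a count added after seeing the data, were 12 with library median scaling, where 82 members could be tested, and 31 to 55 without 1 library. The median of all regions was -0.13 with that scaling and that of the tested members -0.14, so members did not stand apart there by their median. With the replicate block, which the numbers do not justify, the count was 25, and HHC_long against HH_long gave 0. The enrichment ratio as a covariate gave 39, and 0 adjusted.

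The 9 members lower in HH_long than in CC_long were 41 with maximum signal, 4 with library median scaling and 0 with the filter at 3 or more libraries, and 1 to 9 without 1 library (1 without CC_long 1, 3 without CC_long 2, 6 without HH_long 2). The 3 lower in HHC_long than in CCC_long were 16 with maximum signal, 0 with library median scaling, 1 with the filter at 3 or more libraries and 0 at 1 or more, and 0 to 3 without 1 library, with 0 without HHC_long 1 or HHC_long 2. The member higher in HHC_long than in HH_long was lost with maximum signal and with library median scaling, at 0 each, and the count was 0 to 2 without 1 library, 0 without any HH_long library and 2 without HHC_long 2 or HHC_long 3. The cause of these changes was not tested.

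Of the named regions, the log2 difference without 1 library was -0.19 to 0.00875 at Smim20, above 0 without HHC_long 1 or HHC_long 2. It was -0.61 to 0.00762 at Wac, above 0 without CCC_long 1. At Gm4951 it was -0.44 to 0.47, below 0 without HH_long 1, HHC_long 1 (-0.44) or CCC_long 2, and -0.40 with maximum signal. At Gclc it was -0.084 with maximum signal. In the other 574 settings of named regions the direction and side of the threshold held, and in 31 the adjusted p passed 0.05.

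The lists hold peaks past each library's own threshold, so no peak means only that signal stayed under it, and the members lie close to it. Each group holds 2 or 3 animals.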
